A study of Mus musculus with 8 samples.

Results

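The genes described here are the 4 tropomyosins (Tpm1, Tpm2, Tpm3 and Tpm4) and 6 genes named for smooth muscle or related to such genes: the actin Acta2, the transgelins Tagln and Tagln2, the calponins Cnn1 and Cnn2, and the myosin regulatory light chain Myl9. They were chosen by name, but with earlier results of these data known. All 10 have a row among the 41730 rows of the count table. RNA-seq was done on spheroids of 4T1, a breast carcinoma line of the mouse, which were kept as hanging drops in DMEM with 10% FBS. Lentiviral transduction gave the cells of 1 group (shCtrl, 4 libraries) a scrambled shRNA, a short hairpin without a chosen target, and those of the other (shTlr7, 4 libraries) an shRNA against Tlr7, which encodes an endosomal RNA receptor. All libraries thus come from 1 transduced cell line with no host tissue, the labels name 1 targeting hairpin, and whether replicates were separate cultures is not stated. A p-value here therefore reflects the spread among these libraries alone, and that spread may be technical.

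Tropomyosins are rod-shaped coiled-coil dimers that lie end to end along the actin filament. They control which other proteins, among them myosin, cofilin and caldesmon, can reach the filament, and each gene gives several isoforms from alternative starts and exons. In smooth muscle and in contractile fibroblasts the filaments are built with smooth muscle actin (Acta2), and transgelin, calponin and the myosin light chain Myl9 are classical markers of that state. Epithelial cells build their filaments with the cytoplasmic actins and use relatives of these proteins.

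The libraries held between 18.1 and 93.8 M counts, and the biological coefficient of variation estimated by edgeR was 6.76%. Tlr7 itself had 9 counts over the shCtrl libraries and 7 over the shTlr7 libraries, so its RNA level gives no check of the hairpin at this depth. The epithelial markers Epcam and Krt8 were at 705 ± 53.9 and 1154 ± 71.3 CPM (counts per 1 M counts of the scaled library, mean ± SD, n = 4) in shCtrl. In shTlr7, Epcam was at 780 ± 25.3 CPM and Krt8 at 892 ± 51.4 CPM. The libraries numbered 4 correlated most with each other in their deviations from the group means (r = 0.380), and they were left out together as an alternative. The TMM scaling factors lay between 0.960 and 0.969 in all shCtrl libraries and between 1.03 and 1.05 in all shTlr7 libraries. Scaling by library size alone, without these factors, moved the median log2 fold change of all genes from 0.01 to 0.11.

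Of the 10 genes, 6 passed the filter on low counts (all 4 tropomyosins, Tagln2 and Cnn2), whereas Acta2, Tagln, Cnn1 and Myl9 were at or near 0 in both groups. The 6 that could be tested were all lower in shTlr7, by between 12.5% (Cnn2) and 70.6% (Tpm2). Over all 13393 genes tested, 56.1% passed the threshold of an edgeR quasi-likelihood adjusted p under 0.05, which divides into 26.8% lower in shTlr7 and 29.3% higher (3590 and 3927 genes). With library size as the only scaling, 2491 genes were lower and 5513 higher. The median log2 fold change of the 6 was -0.33, beside 0.01 over all genes tested. Without both libraries numbered 4, the log2 fold changes were -0.87 for Tpm1, -1.71 for Tpm2, -0.37 for Tpm3, -0.35 for Tpm4, -0.26 for Tagln2 and -0.23 for Cnn2, and all passed.

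The coding sequences of the tropomyosins are much alike. The 60 bases with the fewest summed differences from Tpm1 are shown, to let a reader judge whether reads can be told apart. They come from the GENCODE M21 transcripts (GRCm38), 5′ to 3′, and capitals mark the bases that differ from Tpm1. The stretch covers bases 442 to 501 of the coding sequence in Tpm1 (transcript Tpm1-202) and 316 to 375 in Tpm2 (Tpm2-201). It covers bases 208 to 267 in Tpm3 (Tpm3-201) and Tpm4 (Tpm4-201), and other transcripts of a gene can place it elsewhere.
Tpm1: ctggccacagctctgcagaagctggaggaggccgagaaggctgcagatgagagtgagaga
Tpm2: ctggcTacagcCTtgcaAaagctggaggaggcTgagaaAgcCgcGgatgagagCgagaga
Tpm3: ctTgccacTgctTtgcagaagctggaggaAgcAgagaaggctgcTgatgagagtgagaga
Tpm4: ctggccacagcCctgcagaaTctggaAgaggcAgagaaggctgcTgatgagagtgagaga
In this stretch Tpm2 differed from Tpm1 at 9 bases, Tpm3 at 6 and Tpm4 at 5. In choosing it, Tpm2, Tpm3 and Tpm4 were not compared with each other. No stretch of 50 bases of a Tpm1 or Tpm2 transcript occurred in a transcript of another gene. Such stretches made up 23.2% of those of Tpm3, all of them shared with Tpm3-rs7, and 15.7% of those of Tpm4, mostly shared with Gm7809. The level of Tpm3 and Tpm4 therefore depends on how reads that fit several places were counted, which is not given in the sources used here.

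Tpm1, the tropomyosin of striated and smooth muscle that also gives cytoplasmic isoforms, is on chromosome 9 (67022590 to 67049406, minus strand, GRCm38). It was at 755, 782, 761 and 685 CPM in shCtrl replicates 1 to 4 and at 426, 400, 439 and 421 CPM in shTlr7 replicates 1 to 4. Every shTlr7 library was below every shCtrl library, and the lowest shCtrl value was that of replicate 4. Over all genes tested, the groups stood apart for 49.8%, made up of 23.8% with shTlr7 lower and 26% with shTlr7 higher. The log2 fold change was -0.82 ± 0.05 (SE; edgeR adjusted p = 1.36e-08), a fall of 43.5%. Of all genes tested, 10.6% had a larger absolute log2 fold change.

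Tpm2 encodes beta-tropomyosin, the typical partner of the Tpm1 product in smooth and skeletal muscle. It lies on chromosome 4 (43514711 to 43523765, minus strand). Its level was low, at 6.36, 6.36, 6.53 and 7.82 CPM in shCtrl replicates 1 to 4 and 1.98, 2.09, 1.71 and 2.08 CPM in shTlr7 replicates 1 to 4, from 737 and 362 counts in all. Again the groups stood apart, and here shCtrl replicate 4 was the highest library. The log2 fold change was -1.77 ± 0.12 (SE; edgeR adjusted p = 5.59e-08), and 2.29% of all genes tested had a larger one in absolute terms.

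Tpm3 and Tpm4 give the cytoplasmic tropomyosins found in most non-muscle cells. Tpm3 (chromosome 3, 90072649 to 90100902, plus strand) was at 241, 249, 247 and 219 CPM in the shCtrl libraries and at 190, 190, 195 and 182 CPM in the shTlr7 libraries. Tpm4 (chromosome 8, 72134975 to 72153142, plus strand) was at 826, 877, 840 and 744 CPM in shCtrl and at 675, 660, 669 and 611 CPM in shTlr7. In both genes the groups did not overlap, and replicate 4 was the lowest library of each group. The log2 fold changes were -0.34 ± 0.05 for Tpm3 (SE; edgeR adjusted p = 2.84e-05) and -0.33 ± 0.05 for Tpm4 (edgeR adjusted p = 1.31e-04).

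**Figure D1:**
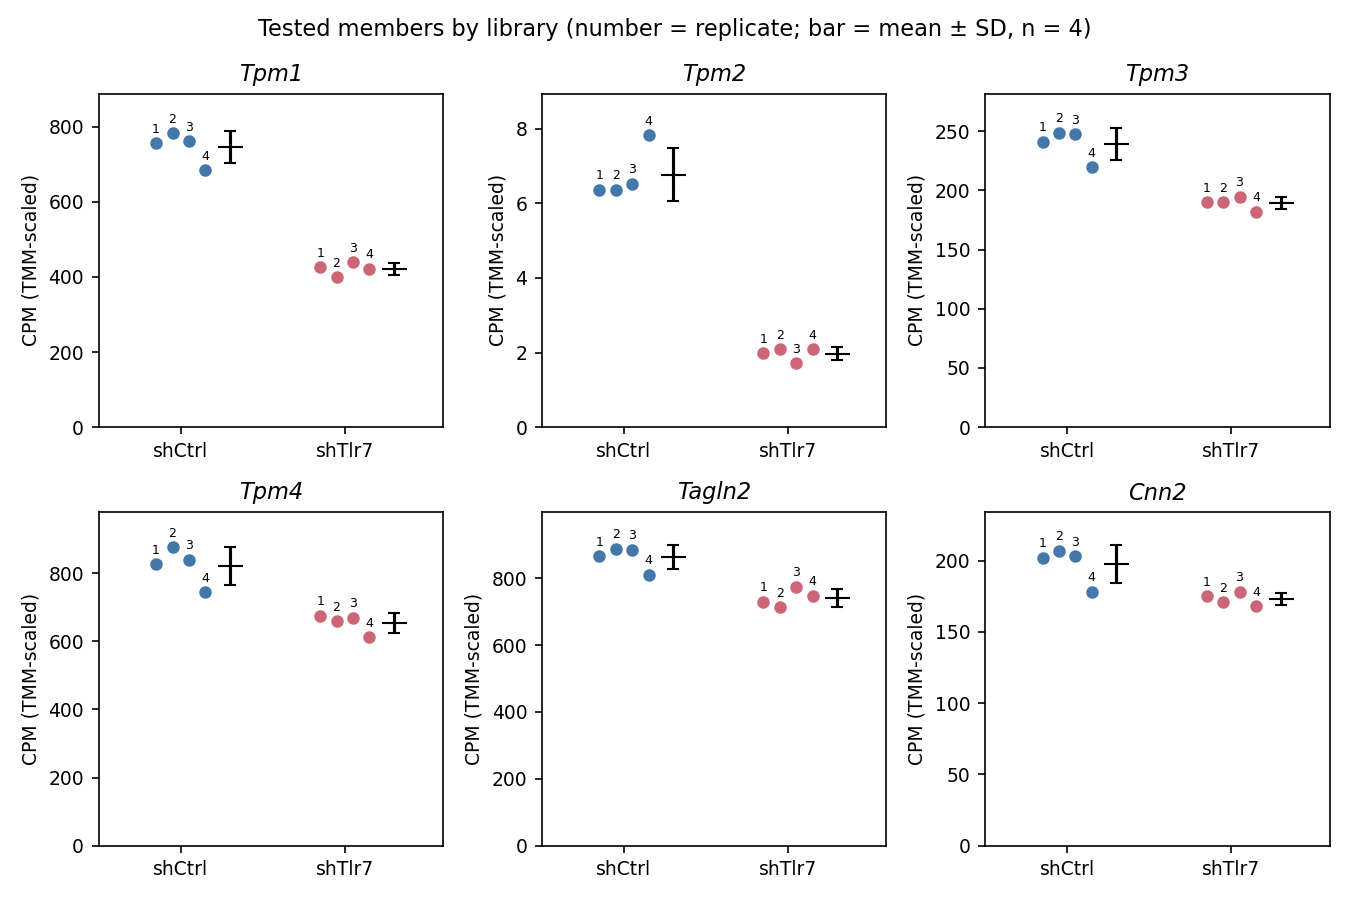
CPM (vertical axis, from 0) of the 6 tested genes in each library, with the replicate number above each point and the mean ± SD of the 4 libraries of a group as a black bar. Tpm1 and Tpm2 show a wide gap between the groups, whereas shCtrl replicate 4 comes level with the highest shTlr7 library in Cnn2.

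Tpm3 and Tpm4 fell by similar amounts and Tpm1 fell further, and the makeup of the tropomyosin transcripts differed between the groups. Levels of different genes were compared as CPM per kilobase of annotated exon. On that scale, the 4 genes summed to 530 ± 33.8 CPM per kilobase in shCtrl and 394 ± 14.5 in shTlr7 (SD, n = 4). Tpm4 held 70.4% ± 0.329 of this sum in shCtrl and 75.4% ± 0.805 in shTlr7, and Tpm1 held 21.7% ± 0.188 and 16.5% ± 0.739. The share of Tpm3 was 7.42% ± 0.101 and 7.90% ± 0.122, and that of Tpm2 was 0.443% ± 0.0773 and 0.172% ± 0.0202.

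The shares are a description with no test. For each of the 4 genes the shares of the shTlr7 libraries did not overlap those of the shCtrl libraries. As the shares of a library add up to the whole, a fall of 1 share raises others. The 4 are therefore not separate results. The ratio of Tpm1 to Tpm4 counts was 0.914, 0.892, 0.906 and 0.920 in shCtrl replicates 1 to 4, and 0.630, 0.605, 0.656 and 0.689 in shTlr7 replicates 1 to 4. This ratio does not depend on the scaling between libraries. The ratio of Tpm3 to Tpm4 was 0.291 ± 0.00515 in shCtrl and 0.289 ± 0.00678 in shTlr7, a difference smaller than its spread. Gene counts cannot tell the isoforms of a gene apart, and the exon length used joins all of them, so the shares depend on it: without division by length, Tpm1 held 41.1% and 33.3%, and Tpm4 45.3% and 51.6%.

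**Figure D2:**
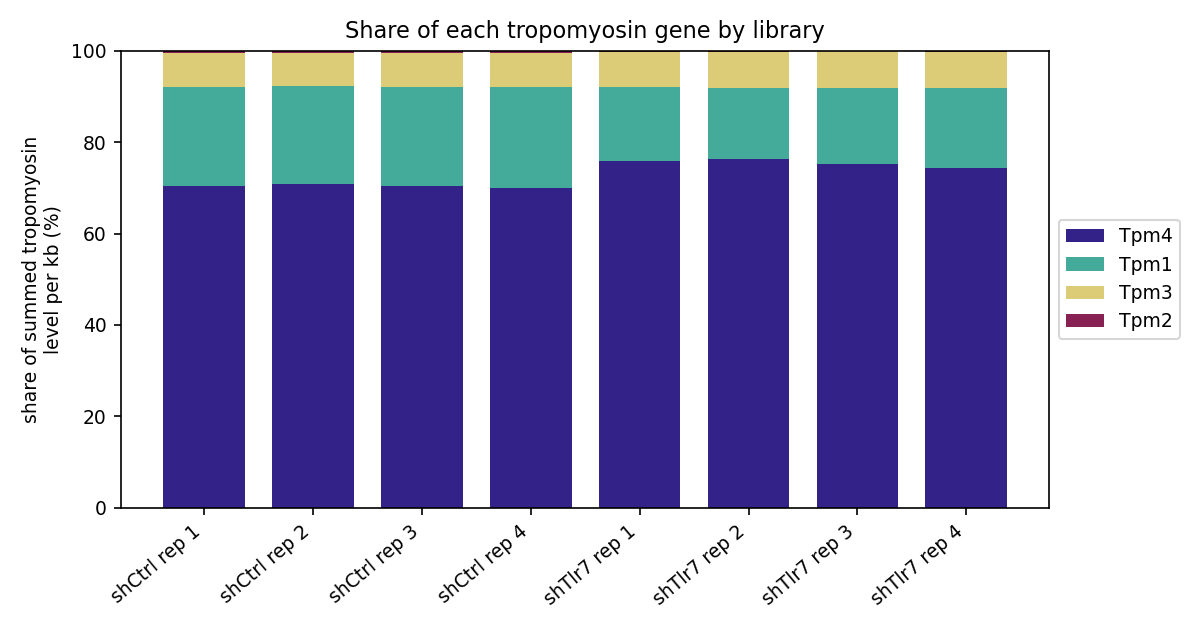
Share (percent, vertical axis) of Tpm4, Tpm1, Tpm3 and Tpm2 in the summed tropomyosin level per kilobase of exon, as stacked bars for each of the 8 libraries. The Tpm1 band is narrower in the 4 shTlr7 libraries, where it holds 16.5% on average, than in the 4 shCtrl libraries, where it holds 21.7%.

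The transgelin and calponin families each had an abundant cytoplasmic relative and a smooth muscle member that was barely seen. Tagln2, transgelin 2, is an actin-binding protein of many cell types (chromosome 1, 172500047 to 172507380, plus strand). It was at 866, 888, 885 and 811 CPM in shCtrl and at 730, 713, 774 and 747 CPM in shTlr7. The groups did not overlap, and the fall was small, at -0.22 ± 0.04 (log2 fold change, SE; edgeR adjusted p = 7.90e-04). With library size as the only scaling it was -0.12 (edgeR adjusted p = 0.0313). Of all genes tested, 52.3% had a larger absolute log2 fold change.

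Cnn2, a calponin of non-muscle cells, is on chromosome 10 (79988584 to 79996062, plus strand). Its values were 202, 207, 203 and 178 CPM in shCtrl and 175, 171, 178 and 168 CPM in shTlr7. The groups all but touched, with shCtrl replicate 4 at 178.259 CPM and shTlr7 replicate 3 at 178.257 CPM. The log2 fold change was -0.19 ± 0.05 (SE; edgeR adjusted p = 0.00399), and 57.1% of all genes tested had a larger absolute one. With library size as the only scaling, it was -0.089 and did not pass (edgeR adjusted p = 0.114).

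Cnn3, the third calponin, was the gene with the lowest p in the list named other smooth muscle and muscle contractile genes. It was at 371 ± 12.2 CPM in shCtrl and at 194 ± 5.58 CPM in shTlr7 (log2 fold change -0.94 ± 0.04, SE; edgeR adjusted p = 6.75e-10). Per kilobase of exon, Cnn3 was at 122 in shCtrl and 63.8 in shTlr7, and Cnn2 at 80.3 and 70.3.

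The 4 smooth muscle markers of the set were at the edge of detection. Acta2, smooth muscle actin (chromosome 19, 34241090 to 34255590, minus strand), was read 0, 10, 2 and 3 times in the shCtrl libraries and 0, 7, 3 and 2 times in the shTlr7 libraries. No library exceeded 0.202 CPM. Pooled over a group, its level in shTlr7 was 0.525 times that in shCtrl, and the exact 95% interval ran from 0.224 to 1.20 (two-sided exact binomial p = 0.115). The interval covers counting error only and leaves no difference detectable at this depth.

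Cnn1, the smooth muscle calponin (chromosome 9, 22099216 to 22109630, plus strand), had 8 counts in shCtrl and 11 in shTlr7. Its pooled ratio was 0.903 with an exact 95% interval from 0.331 to 2.58. Myl9, the smooth muscle form of the myosin regulatory light chain (chromosome 2, 156775420 to 156781658, plus strand), had 3 counts in each group. The interval of Cnn1 spans both a rise and a fall, and Myl9 was at the limit that 3 counts set, so no direction can be given for either. When every row with a count was tested, the edgeR adjusted p was 0.268 for Acta2, 0.832 for Cnn1 and 0.710 for Myl9.

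Tagln, which encodes transgelin (also called SM22 alpha; chromosome 9, 45929619 to 45936058, minus strand), had 0 counts in all 8 libraries. Taking 3 counts over a group's total as the limit, this allows up to 0.0262 CPM in shCtrl and 0.0172 CPM in shTlr7. Of its 1988 exon bases, 67.9% overlap exons of genes on the opposite strand (Pcsk7 and Gm48529), and the strand setting of the counting is not given in the sources used here. Whether reads on those bases were counted for Tagln was not tested. Of the 50-base stretches of the Tagln transcripts, 58.3% were shared with these genes, mostly with Gm48529 rather than Pcsk7. Gm48529 has no row in the count table, whereas Pcsk7 has one. Whether Gm48529 was left out of the counting or only of the table is not given in the sources used here. The exons of Acta2, Cnn1 and Myl9 overlap no other gene, and none of the 10 genes has a further copy row in the count table. A near-zero row is not always an absent transcript in this table. Pfn1, which encodes the ubiquitous actin-binding protein profilin 1, had 27 counts in shCtrl and 46 in shTlr7. It does have a further copy row, but that row held 148 counts in shCtrl and 240 in shTlr7. Why both rows were low was not tested.

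**Figure D3:**
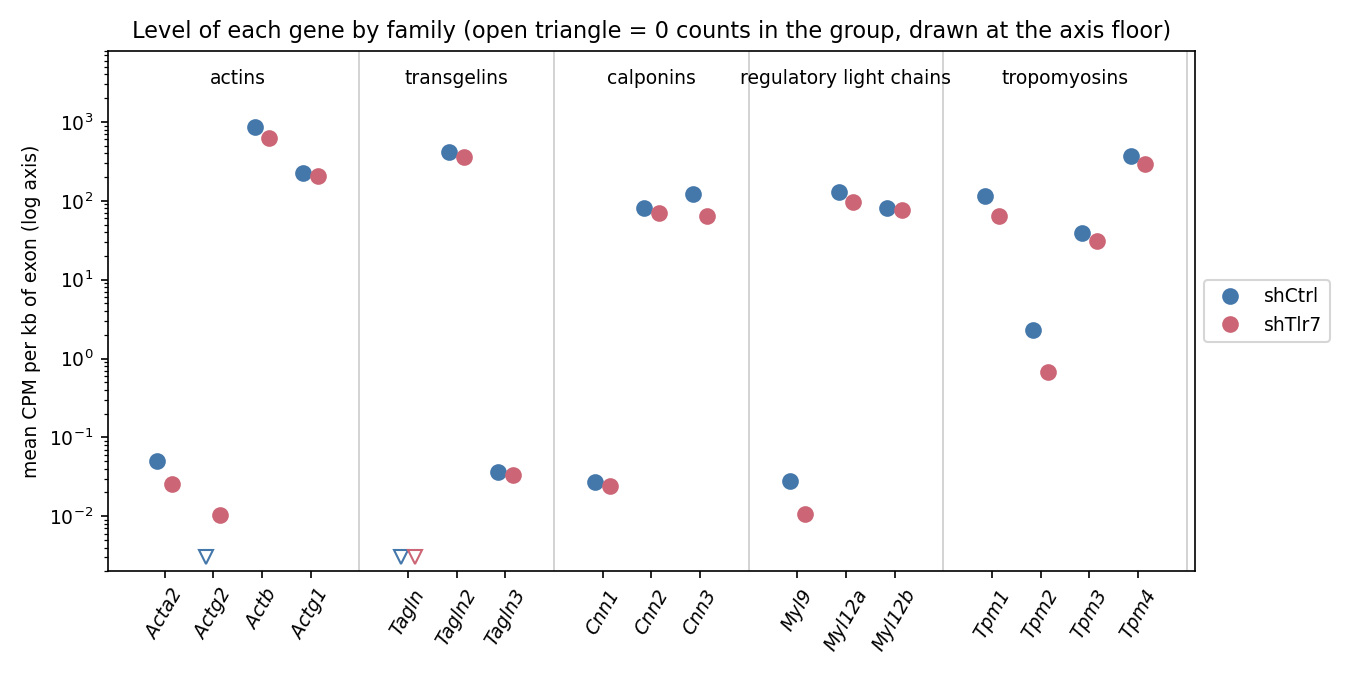
Mean level in CPM per kilobase of exon (log axis) of the actins, transgelins, calponins, myosin regulatory light chains and tropomyosins in shCtrl (blue) and shTlr7 (red), with open triangles for a group with 0 counts. Within each of the first 4 families, the smooth muscle form (Acta2, Tagln, Cnn1, Myl9) lies below 0.1 while a cytoplasmic relative lies above 10.

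By level per kilobase in shCtrl, the order of the 10 genes was Tagln2 (414 ± 17.2, SD, n = 4), Tpm4 (373 ± 25.3), Tpm1 (115 ± 6.52), Cnn2 (80.3 ± 5.32), Tpm3 (39.3 ± 2.22) and Tpm2 (2.33 ± 0.243), followed by Acta2, Myl9, Cnn1 and Tagln at under 0.1. Tagln2 and Tpm4 overlapped in range, and Acta2, Myl9 and Cnn1 did not differ beyond their spread. In shTlr7, Cnn2 (70.3 ± 1.82) stood above Tpm1 (65.0 ± 2.52), the one change of order on this scale among the 6 tested genes. It depends on the exon lengths used, 6485 bases for Tpm1 and 2460 for Cnn2. Without division by length, Tpm1 was at 421 CPM and Cnn2 at 173 CPM in shTlr7.

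Cytoplasmic relatives of these barely read genes were abundant. The actin Actb fell from 2292 ± 197 to 1680 ± 68.7 CPM (log2 fold change -0.45 ± 0.06, edgeR adjusted p = 2.49e-05). Actg1, the other cytoplasmic actin (named after its values were seen), went from 604 ± 43.5 to 542 ± 27.2 CPM (-0.16 ± 0.05, edgeR adjusted p = 0.0258). Its call was lost without shCtrl replicate 1, 2 or 3, without shTlr7 replicate 1 or 2, and with library size as the only scaling (-0.054, edgeR adjusted p = 0.412). The light chain Myl12a, a close relative of Myl9, fell from 431 ± 15.1 to 322 ± 10.8 CPM (-0.42 ± 0.04, edgeR adjusted p = 1.57e-06). Its neighbour in sequence Myl12b was at 222 ± 4.14 and 209 ± 2.43 CPM (-0.08 ± 0.04, edgeR adjusted p = 0.0632), and its sign turned to 0.02 with library size as the only scaling. Of 17 genes for non-muscle actin, myosin and its control tested, 9 were lower, 2 higher and 6 not called. Among all genes tested, 26.8% were lower and 29.3% higher. The median log2 fold change of the 17 was -0.16. With library size as the only scaling, 6 of the 17 were lower and 4 higher. The gene with the lowest p was Myh9, the heavy chain of non-muscle myosin IIA, which fell from 1207 ± 24.7 to 820 ± 32.2 CPM. The 2 called higher, Myl6 and Rhob (named after their values were seen), were near the threshold with TMM scaling. Myl6 went from 218 ± 5.06 to 233 ± 4.17 CPM (log2 fold change 0.09 ± 0.04). Rhob went from 302 ± 17.7 to 545 ± 198 CPM (0.85 ± 0.28), and its shTlr7 libraries ranged from 291 to 718 CPM. With any 1 library left out, 0 or 1 gene of the list was higher. With library size as the only scaling, the edgeR adjusted p was 2.97e-04 for Myl6 and 0.0233 for Rhob.

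Of 24 tested genes for proteins that bind, cap or cross-link the filaments, 15 were lower, 4 higher and 5 not called, beside 26.8% lower and 29.3% higher over all genes tested. The median log2 fold change of the list was -0.27. With library size as the only scaling, 11 of the 24 were lower and 6 higher. The bundling protein fascin (Fscn1) fell from 446 ± 21.1 to 255 ± 10.6 CPM and alpha-actinin 1 (Actn1) from 596 ± 37.8 to 360 ± 15.7 CPM. Their log2 fold changes were -0.81 and -0.73 (edgeR adjusted p = 9.89e-09 and 7.20e-08). The higher genes were Flnc, Pfn2, Csrp1 and Csrp2 (named after their values were seen), with log2 fold changes between 0.11 and 0.26. With TMM scaling none of the 4 passed an adjusted p under 0.01, and leaving out a library brought their number to between 1 and 3. With library size as the only scaling, the edgeR adjusted p was 3.98e-04 for Flnc, 0.00147 for Pfn2, 1.63e-04 for Csrp1 and 0.00530 for Csrp2. Tmod3, chosen after its values were seen, encodes the tropomodulin that caps tropomyosin-coated filaments in non-muscle cells and had a log2 fold change of -0.31 ± 0.04 (edgeR adjusted p = 2.06e-05).

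Other muscle contractile genes went both ways. Of 25 listed, 15 could be tested. Of these, 7 were lower, 5 higher and 3 not called, beside 26.8% lower and 29.3% higher over all genes tested. Besides Cnn3, the lowest p were those of the fast skeletal troponin I gene Tnni2, which fell from 16.7 ± 2.19 to 5.56 ± 0.818 CPM, and of smoothelin (Smtn), which fell from 274 ± 5.52 to 161 ± 16.3 CPM. Their log2 fold changes were -1.57 ± 0.12 and -0.77 ± 0.06 (edgeR adjusted p = 1.23e-07 and 3.18e-07). Among genes chosen after their values were seen, the cardiac troponin T gene Tnnt2, whose product binds tropomyosin, fell from 369 ± 38.5 to 143 ± 30.8 CPM (edgeR adjusted p = 1.64e-04), and caldesmon (Cald1) from 780 ± 40.4 to 556 ± 11.4 CPM (edgeR adjusted p = 7.26e-07). The 5 higher genes, also named after their values were seen, were all at low levels. The skeletal light chain Mylpf rose from 0.434 ± 0.155 to 0.948 ± 0.198 CPM and the atrial light chain Myl4 from 0.581 ± 0.278 to 1.06 ± 0.0921 CPM. Ldb3, Lmod1 and Tnnc1 rose by 1.06, 1.04 and 0.61 on the log2 scale (edgeR adjusted p = 0.00296, 0.0131 and 0.00365). With a minimum of 1 CPM in 4 libraries, 2 rather than 5 of the list were higher.

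**Figure D4:**
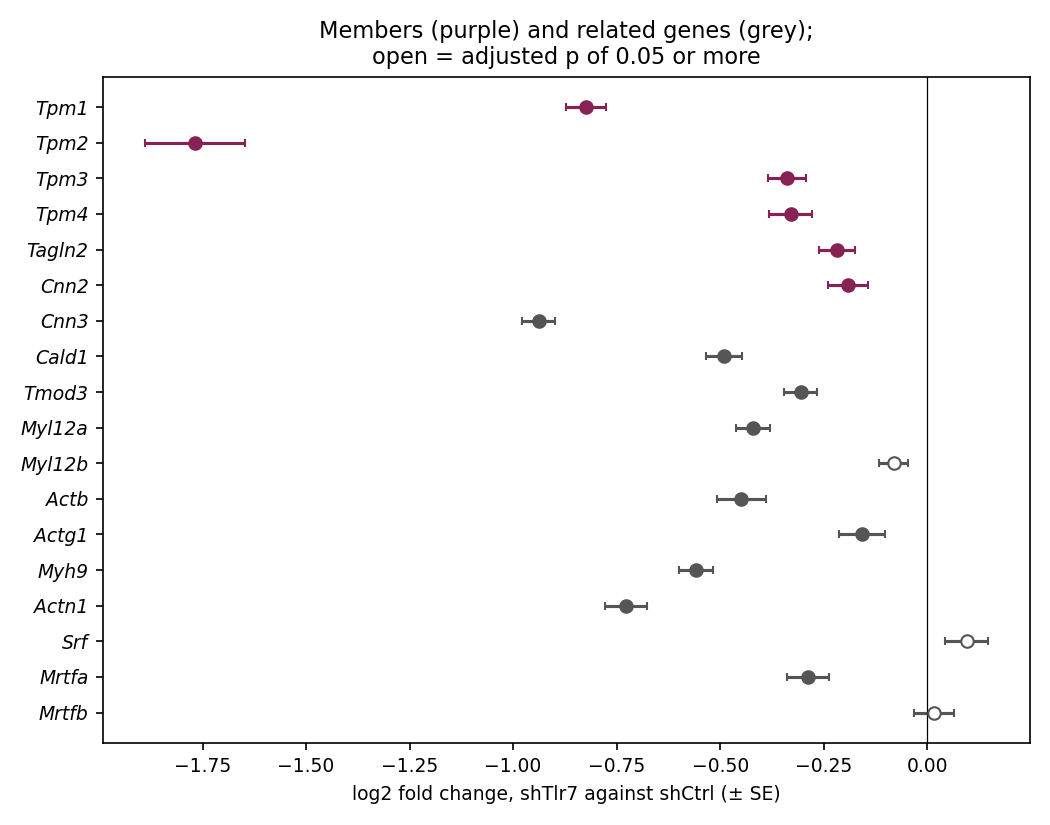
Log2 fold change of shTlr7 against shCtrl with its SE (horizontal axis) for the 6 tested genes of the set (purple) and 12 related genes (grey), with open points for genes that did not pass an adjusted p of 0.05. Tpm2 lies farthest to the left at -1.77, and Srf, Mrtfb and Myl12b are the open points near 0.

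Transcription of many of these genes is known to be driven by serum response factor (SRF) with its actin-sensing cofactors, the myocardin-related factors Mrtfa and Mrtfb. Srf was at 66.8 ± 3.21 CPM in shCtrl and 71.2 ± 3.59 CPM in shTlr7 (log2 fold change 0.095 ± 0.05, edgeR adjusted p = 0.130). Mrtfb differed by 0.02 ± 0.05 (edgeR adjusted p = 0.782). Mrtfa was lower, at 78.3 ± 4.78 and 64.2 ± 2.21 CPM (-0.29 ± 0.05, edgeR adjusted p = 3.08e-04). Myocd, the myocardin of smooth muscle and heart, had 0 counts in all libraries. These genes were chosen after their values were seen.

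Of 13 such regulators tested, 8 were lower, 0 higher and 5 not called, beside 26.8% lower and 29.3% higher over all genes tested. The median log2 fold change of the list was -0.21, and the list was not split by whether a gene promotes or restrains SRF. The lowest p were those of the SRF partner Elk3 at -0.84 ± 0.04, the LIM-domain cofactor Fhl2 at -1.14 ± 0.06 and the actin-binding regulator Phactr1 at -1.08 ± 0.14 (edgeR adjusted p = 3.07e-09, 4.19e-09 and 1.93e-05). With library size as the only scaling, 6 of the list were lower and 2 higher, with Srf at 0.20 (edgeR adjusted p = 0.00456) and Mrtfb at 0.12 (edgeR adjusted p = 0.0410).

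SRF binds a short AT-rich element, the CArG box. Promoter windows (RefSeq, GRCm38.p6, 250 bases before to 50 after a start) were given for 9 of the 10 genes, in 10 windows, and not for Tagln. An exact match to the CArG consensus, searched on both strands, occurred in those of Cnn2 and Myl9, and in 1.63% of all 32851 windows. Boxes that differ from the consensus at a base were not searched for, so a window without a match may still hold one. The stretches of both genes before any annotated start are shown with the CArG box in capitals. The first is chr10:79988350-79988583 and the second chr2:156775214-156775419, both on the plus strand.
Cnn2: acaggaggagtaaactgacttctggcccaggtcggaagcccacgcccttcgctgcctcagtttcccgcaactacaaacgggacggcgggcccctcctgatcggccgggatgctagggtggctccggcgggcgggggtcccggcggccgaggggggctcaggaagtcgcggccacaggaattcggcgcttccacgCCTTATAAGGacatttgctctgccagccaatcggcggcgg
Myl9: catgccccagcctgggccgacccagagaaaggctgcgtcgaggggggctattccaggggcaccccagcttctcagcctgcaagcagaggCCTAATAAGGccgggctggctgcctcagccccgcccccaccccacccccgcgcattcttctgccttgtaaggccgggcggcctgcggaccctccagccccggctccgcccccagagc
The box starts 56 bases before the RefSeq start in Cnn2 and 161 bases before it in Myl9. The hexamer CATTCC, or its reverse complement GGAATG, was also searched, as it is the core of the element bound by TEAD factors. It occurred in the windows of Tpm1, Acta2 and Tagln2, and in 14.7% of all windows. A match is a description of the letters only, and the windows of Tpm2, Tpm3, Tpm4 and Cnn1 held no exact match to either motif.

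Profiles over the 8 libraries were compared with those of 10482 other named genes by Pearson's r of log2 CPM, as a description, for the 3 genes with the largest fold changes. Most like Tpm2 were Adam8, Col6a1 and Sema3f (r = 0.998 for each). Most like Tpm1 were Angptl2, Plscr2 and Nnt (r = 0.999, 0.999 and 0.998), and most like Tpm3 were Cand2, Dhrs1 and Pak3 (r = 0.998, 0.998 and 0.997). Such values are common where the groups lie apart: r was over 0.95 for 864 genes with Tpm2, 952 with Tpm1 and 640 with Tpm3.

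**Figure D5:**
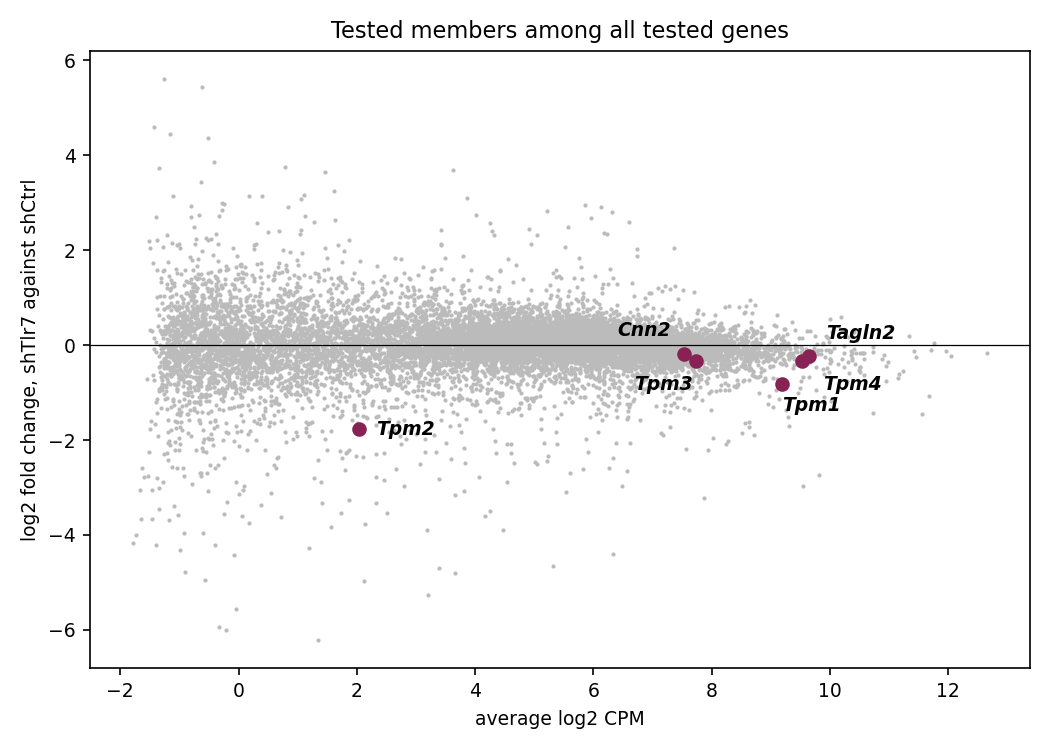
Log2 fold change of shTlr7 against shCtrl (vertical axis) over the average log2 CPM (horizontal axis) for all 13393 tested genes (grey) and the 6 tested genes of the set (purple). Tagln2 and Cnn2 lie within the dense band of genes, whereas Tpm1 and Tpm2 lie below it.

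Markers of other cells were read beside these results. The defining smooth muscle genes Myh11, Actg2 and Des had 29, 2 and 7 counts over all libraries. Of the 13 smooth muscle and pericyte markers, 4 were tested, with 2 higher and 2 lower, and Myocd and Kcnj8 were at 0. Over all genes tested, 29.3% were higher and 26.8% lower. The summed level of the 13 markers was 294 to 310 CPM in shCtrl and 178 to 208 CPM in shTlr7, most of it Smtn. Of the other tested markers, Mcam rose by 0.70 (edgeR adjusted p = 2.66e-04) and Notch3 fell by 0.47 (edgeR adjusted p = 0.00492). Fibroblast markers summed to 44.3 to 45.6 and 44.6 to 49.9 CPM, nearly all Pdgfra, and Col3a1, Thy1 and Dpt were at 0. Of the 3 tested, Fap rose from 0.359 ± 0.117 to 2.01 ± 0.394 CPM (edgeR adjusted p = 2.82e-06), and Pdgfra and Col1a1 were not called.

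Myoepithelial cells of the mammary gland carry Acta2, Cnn1 and basal keratins. Of 9 myoepithelial and basal markers, Krt14 and Krt15 were tested and fell, from 36.2 ± 2.95 to 3.26 ± 1.08 CPM and from 11.5 ± 3.29 to 1.00 ± 0.405 CPM (edgeR adjusted p = 1.91e-07 and 1.09e-06). The list summed to 47.9 to 49.0 CPM in shCtrl and 3.64 to 6.19 CPM in shTlr7, with Krt5 and Krt6a at 0. Of 9 epithelial markers 8 were tested, with 4 lower and 3 higher, beside 26.8% lower and 29.3% higher over all genes tested. The 9 markers summed to 6171 to 6691 and 4785 to 5280 CPM, and Cldn7, which has a further copy row, was at 0. The lowest p there were those of the keratins Krt19, Krt7 and Krt18, with log2 fold changes of -0.69, -1.19 and -0.47 (edgeR adjusted p = 1.91e-08, 2.51e-08 and 5.62e-06). The higher markers, named after their values were seen, were claudin 3 (Cldn3) at 0.56, E-cadherin (Cdh1) at 0.20 and Epcam at 0.15 (edgeR adjusted p = 6.15e-05, 7.14e-04 and 0.0297). Of the 7 skeletal muscle markers only Myh1 was tested, at under 1 CPM, and Myod1 and Myog were at 0. The part of these shifts in the levels of the tropomyosins was not tested, and in bulk RNA fewer cells of a kind cannot be told apart from less RNA per cell.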

How the data were processed

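RNA-seq of 8 libraries of 4T1 spheroids was analysed, grouped and numbered as titled. What the authors deposited are raw counts for each gene, not normalized. Named in the submitters' processing notes, with no role, are GRCm38, STAR 2.7.5 and DESeq2 1.32.0. How reads were counted (program, strand, gene models) is not given in the sources used here. The 10 genes, the context lists and the alternatives were chosen with earlier results of these data known.

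Counts were analysed with edgeR 4.0.16 in R 4.3.3: filterByExpr on the groups (13393 genes kept), TMM scaling, a robust quasi-likelihood fit on group alone, and Benjamini-Hochberg adjustment over all genes tested (threshold 0.05). The standard error is the log2 fold change over the square root of F. CPM uses TMM-scaled library sizes, and counting limits use 3 counts of the unscaled total. Positions, exon lengths, overlaps and shared 50-base stretches come from GENCODE M21 (GRCm38). The test was tried on simulated data.

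The text names all 10 genes, the 3 tested genes of lowest p in each list, marker genes at 0, and the 3 most similar profiles (average log2 CPM of at least 1) for the 3 largest fold changes. A gene of the filament-binding list that this rule names is not reported here. Others are said to be named after their values were seen. Alternatives were 3 other scalings (upper-quartile, RLE, and library size only), limma-voom (limma 3.58.1), DESeq2 1.42.0, other filters, a stricter threshold, the replicate block, left-out libraries, thinning and summed copies.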

Additional observations from a re-analysis of the deposited data

Results flagged for a closer look

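In a group of 4 libraries, 1 value far from the others was found in 2 of the 18 gene and group pairs examined, and chance alone gives about 1 in 20. Both values come from 1 library, so they are not independent of each other. Tpm2 was at 7.82 CPM in shCtrl replicate 4, while the other 3 shCtrl libraries lay between 6.36 and 6.53 CPM. Cnn2 was at 178 CPM in the same library, below the other 3 at 202 to 207 CPM. Without shCtrl replicate 4, the log2 fold change of Cnn2 was -0.25 (edgeR adjusted p = 3.05e-05) and that of Tpm2 -1.70 (edgeR adjusted p = 2.40e-09).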

How the results depend on the processing

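Of 120 fold changes of the 6 tested genes under the alternatives, 119 kept their direction and their side of the threshold. The exception was Cnn2 under scaling by library size only, at -0.089 (edgeR adjusted p = 0.114), which leaves 5 genes lower. Fold changes ranged from -0.87 to -0.72 for Tpm1, -1.82 to -1.66 for Tpm2, -0.39 to -0.24 for Tpm3, -0.38 to -0.23 for Tpm4, -0.26 to -0.12 for Tagln2 and -0.25 to -0.089 for Cnn2. Over all genes, 3927 higher and 3590 lower calls became 5513 and 2491 under library size only. The replicate block left all 6 lower, with 4334 higher and 4005 lower genes in all. The correlation of deviations for equal numbers was -0.00676, 0.114, 0.118 and 0.380, so the numbers were not taken to pair the samples, and 2 of 4 libraries correlated best with their own number.

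Small counts in the context lists moved. For non-muscle actin and myosin, 2 higher became 4 under library size only (9 lower became 6), 1 under RLE scaling, limma-voom, the replicate block, thinning, summed copies or without both libraries numbered 4, and 0 without the filter or at 0.01. Leaving out 1 library gave 0 to 1 there, 1 to 3 higher among filament-binding genes (4, and 0 at 0.01), 1 to 2 higher among smooth muscle and pericyte markers (2), and 0 to 1 lower among skeletal muscle markers (1). Higher smooth muscle and pericyte markers were 1 with DESeq2, at 0.01, with thinning or with at least 1 CPM, and lower skeletal muscle markers were 0 under these, under library size only and without the libraries numbered 4. Higher muscle contractile genes (5) were 2 with at least 1 CPM and 3 with thinning. Library size only gave 2 higher SRF regulators (0) and 2 higher fibroblast markers (1), and 1 fibroblast marker was lower (0) without the filter, with the replicate block and with thinning. Without division by length, tropomyosin shares in shCtrl and shTlr7 were 41.1% and 33.3% for Tpm1, 13.2% and 14.9% for Tpm3, and 45.3% and 51.6% for Tpm4. Except where the construction shows it, the cause was not tested. Acta2, Cnn1, Myl9 and Tagln had too few counts to pass the filter, and why Tagln was at 0 was not tested.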
